A study of Mus musculus with 32 samples.

Results

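The cells described are thymocytes of R72 mice, taken 4 h after the mice received 5 Gy of gamma radiation, compared with thymocytes of untreated R72 mice. They were chosen by title, as the arrays of R72 mice at 4 h and untreated, and make up 8 of the 32 arrays, 4 in each group. R72 mice carry arginine at codon 72 of the tumour suppressor p53, a position where human p53 holds either proline or arginine, and the labels give their strain as C57Bl/6 and their age as 6 weeks. The series set them beside P72 mice, with proline at that codon, and beside p53+/+ and p53-/- mice, at 0, 2 and 4 h, and its title is about the part of the 2 variants in inflammatory gene expression and interplay with NF-kB. Each array measured pooled thymocytes of 2 mice, and the design gives the 4 arrays of a group as independent experiments. How the R72 allele was made, and which other alleles these mice carry, is not given in the sources used here.

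The thymus is filled with immature T cells, most of them at the stage that bears both CD4 and CD8, and these cells are among the most radiosensitive in the body. DNA breaks stabilise p53, which binds response elements near its target genes and raises transcripts for proteins that open the mitochondrial death pathway (Bbc3, Pmaip1, Bax), stop the cell cycle (Cdkn1a) and restrain p53 itself (Mdm2). NF-kB is the other transcription factor the series is about: it is held in the cytoplasm by inhibitors such as the product of Nfkbia, and drives chemokines, cytokines and survival genes once freed. Genes of DNA replication and of mitosis are driven by E2F factors and by complexes that bind short elements near the start site, and are repressed when the cycle stops.

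Levels are log2 processed fluorescence minus the 75th percentile of the array, so 0 stands for the 75th percentile, and a change is a difference of mean levels with its standard error after ±. The 75th percentile was 407.1 to 663.2 fluorescence units on the untreated arrays and 334.1 to 435 at 4 h, and the share of probes well above background was 58.3% to 66.3% untreated against 66.7% to 68.8% at 4 h. No spot was saturated; precision is limited by having 4 arrays a group. Across genes, which are not independent replicates, arrays of a group correlated at 0.9868 to 0.9914 untreated and at 0.9847 to 0.9905 at 4 h, and arrays of different groups at 0.9577 to 0.9768. By the labels a pool mixed 1 male with 1 female, but Xist, the transcript of the inactive X chromosome, was at -4.33 and -5.06 on untreated replicates 1 and 3, at -4.64 and -3.73 on those replicates at 4 h, and at 5.11, 5.15, 5.26 and 5.56 on replicates 2 and 4. Both groups were split alike, and counts for each pair of replicates stand beside the main result. Trp53, which encodes p53, was at 0.29, 0.26, 0.13 and 0.08 untreated and at 0.28, 0.42, 0.50 and 0.13 at 4 h, and the groups overlapped (change 0.14 ± 0.17, adjusted p = 0.544). Over 26 alternative settings its change ran from -0.01 to 1.11, and in 1 of them its rise passed the test. The array does not read the codon, so Trp53 does not check the label.

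Markers of thymocytes were present and stayed high. Cd8a, the CD8 alpha chain, was at 7.15, 7.02, 7.15 and 7.01 untreated and at 7.12, 6.99, 6.94 and 6.88 at 4 h. Rag1, the recombinase that cuts the receptor genes of immature thymocytes, was at 6.85, 7.10, 6.94 and 7.17 untreated and at 7.50, 7.52, 7.50 and 7.71 at 4 h, a rise of 0.54 ± 0.09 (adjusted p = 1.41e-04). The 4 h arrays of Rag1 all lay above the untreated ones, while those of Cd8a overlapped (change -0.11 ± 0.11, adjusted p = 0.458). Among 24 tested markers of double positive thymocytes 3 rose and 10 fell, with a median change of -0.19 beside 0.09 over all genes tested. Ptcra, the partner chain of the pre-T cell receptor, fell by 0.91 ± 0.13 and the lineage factor Bcl11b by 0.80 ± 0.22. Of 31 genes of T cell receptor signalling 3 rose and 11 fell (median -0.19). RNA came from whole pools of thymocytes, in which fewer cells of a type and less RNA per cell cannot be told apart.

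Irradiation changed a large share of the transcriptome within 4 h. Of 20536 genes tested, 9210 (44.8%) passed an adjusted p of 0.05 in limma, 5922 of them up (28.8%) and 3288 down (16%), with a median change over all genes of 0.09. Rises were the larger changes: 3607 genes rose by at least 2-fold and 1056 by at least 4-fold, whereas 215 fell by at least 2-fold and 7 by at least 4-fold. Values of the 4 h arrays lay above every untreated array for 5628 genes (27.4%) and below every untreated array for 3285 (16%). Either pair of replicates alone gave fewer calls, 2443 up and 715 down in replicates 1 and 3, and 2853 up and 979 down in replicates 2 and 4. The split between up and down moved with the setting: 64.3% of called genes were up here, 46.9% when each array was centred on its own median, which put the median of all genes at -0.06, and 51.4% in the authors' tabulated values, where that median was -0.01. With normexp background correction 548 genes were up and 767 down, 187 and 70 of them by at least 2-fold. Plain normexp gave values that were not finite on some arrays. With normexp on a capped background 5417 genes were up and 2893 down, 453 and 121 of them by at least 2-fold. The authors' tabulated values, whose background step and scaling cannot be told apart here, had 404 up and 122 down by at least 2-fold. On the 2 slides that held arrays of both groups, 5919 of 5921 and 5908 of 5922 called genes with a value kept an upward difference, and 3285 of 3288 kept a downward one on each; these genes were called on the same arrays, and the sign was fixed for those whose groups did not overlap. With slide as a fixed block 5859 genes rose and 3486 fell, 8378 of them among the genes called here.

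The rises lay mostly among weakly expressed genes and the falls among strongly expressed ones. Split into 4 classes of 5134 genes by mean level over the 8 arrays, the lowest class held 2762 that rose and 85 that fell (median change 1.03), the second 1882 and 403 (0.27), the third 781 and 1110 (-0.04), and the highest 497 and 1690 (-0.13). Of the genes tested, 1436 were not well above background on any untreated array but were on some at 4 h, and 1224 of these rose. A gene of that kind passed the filter only through arrays where it was higher, so that count is a description. Among 16146 genes well above background on all 8 arrays, 3319 rose and 3224 fell (median change -0.00), 1225 and 178 of them by at least 2-fold. Of the 3607 genes up by at least 2-fold, 1204 were measured on 1 side only, so that only a bound holds for them. Sizes of weak genes also moved with the background step. With normexp, which here adds an offset of 50 to every signal, and in the authors' tabulated values the log2 change of Ccl7 was 1.80 and 2.86 in place of 5.92, that of Ccl2 2.71 and 3.83 in place of 5.21, and that of Il1b 2.82 and 3.57 in place of 4.26. Normexp also gave Cdkn1a 2.46, Plk2 1.41, Gdf15 2.49, Ccn1 2.03, Atf3 2.26, Ifi202b 2.05, F3 1.26, Shmt1 -1.42 and Bcat1 -1.01. The brighter Phlda3, Bbc3 and Mcm6 stood at 4.46, 3.28 and -1.51, beside 4.73, 3.30 and -1.53 here. The share of probes above background and the 75th percentile also moved between the groups, and their part in the rises of weak genes was not tested.

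**Figure D1:**
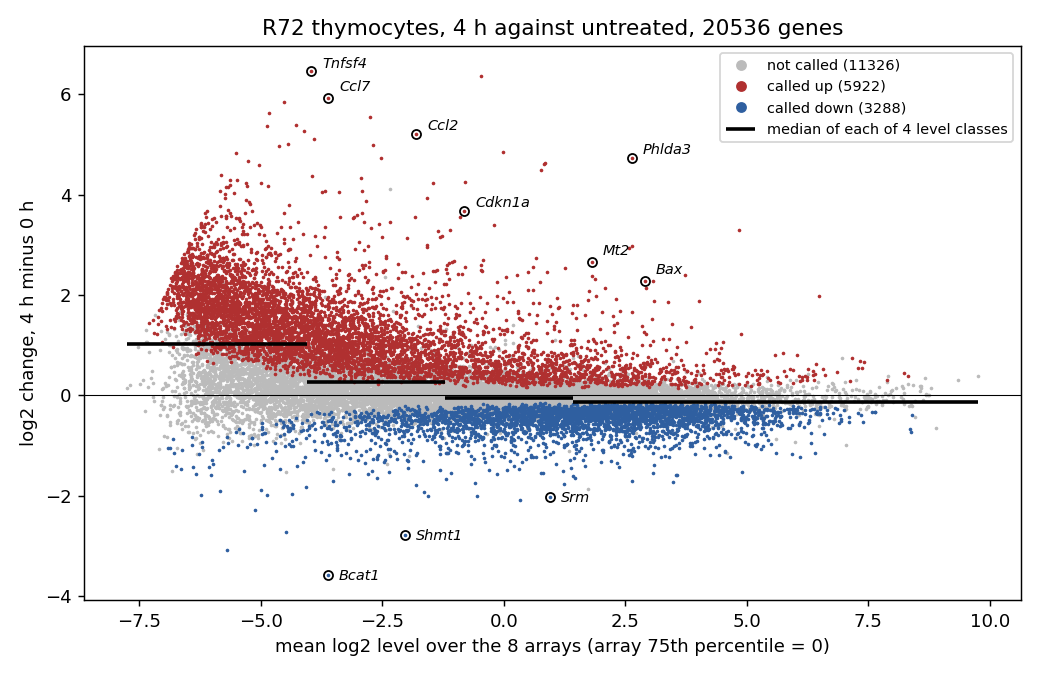
Each point is 1 of 20536 genes: the horizontal axis is its mean log2 level over the 4 untreated and 4 irradiated R72 arrays (75th percentile of the array = 0), the vertical axis its log2 change from untreated to 4 h. Red points are the 5922 genes called up and blue points the 3288 called down; black bars are the medians of 4 classes by level, which run from 1.03 in the lowest class to -0.13 in the highest.

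Known p53 targets that promote cell death rose strongly. Phlda3, whose product blocks the survival kinase Akt at the membrane, was at 0.40, 0.24, 0.27 and 0.16 untreated and at 5.15, 5.09, 4.99 and 4.77 at 4 h (probe at chr1:135655060-135655119, build mm7). All irradiated arrays of Phlda3 stood more than 4 units above all untreated ones, a rise of 4.73 ± 0.10, which is 26.6-fold (adjusted p = 1.67e-17). Bbc3 (PUMA), which frees Bax by binding Bcl2 proteins, was at 3.16, 3.31, 3.13 and 3.12 untreated and at 6.49, 6.56, 6.27 and 6.60 at 4 h, a rise of 3.30 ± 0.09 or 9.85-fold (adjusted p = 1.98e-16). The same kind of protein is encoded by Pmaip1 (NOXA), at -0.59, -0.86, -0.60 and -0.68 untreated and 1.85, 2.06, 1.82 and 1.76 at 4 h, which rose 5.88-fold. Bax, the pore of the mitochondrial outer membrane, went from 1.74, 1.67, 1.65 and 1.98 to 4.02, 3.89, 4.13 and 4.10, a rise of 2.28 ± 0.11 or 4.84-fold (adjusted p = 5.57e-12). In none of these 3 did the groups overlap. Downstream of the pore, Apaf1, the scaffold of the apoptosome, rose 3.73-fold, and Aen, a nuclease of apoptotic cells, 5.00-fold. Zmat3, an RNA-binding p53 target, rose 6.68-fold, Ei24 3.77-fold and Pidd1, a death-domain adaptor, 3.58-fold. Fas, the death receptor, rose less, from 4.03, 4.05, 3.96 and 4.07 to 4.68, 4.65, 4.70 and 4.98 (0.73 ± 0.09, adjusted p = 5.28e-06). In all, 16 of 23 tested death-promoting targets rose and 4 fell, with a median of 1.13 beside 0.09 over all genes. Bid, which links death receptors to mitochondria, was the strongest of the fallers at 1.18, 1.23, 1.35 and 1.37 untreated and 0.13, -0.05, -0.06 and 0.19 at 4 h (-1.23 ± 0.10, adjusted p = 2.79e-08); Siva1, Tnfrsf19 and Casp6 also fell, by 0.90 ± 0.12, 0.77 ± 0.22 and 0.20 ± 0.07, with Tnfrsf19 at 0.047 higher under normexp with a capped background and Casp6 losing its call in 11 of 26 alternative settings.

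The wider Bcl2 family did not move as a block. Of 20 members 7 rose and 4 fell (median 0.17), shares near the 28.8% up and 16% down of all genes tested (median 0.09). Beside Bbc3, Pmaip1 and Bax, the pro-survival Bcl2a1b rose by 1.08 ± 0.18 and the BH3-only gene Bcl2l11 (BIM) by 0.57 ± 0.11. The BH3-only gene Bmf fell by 0.68 ± 0.21, a call lost in 7 of 26 alternative settings, and Bak1, the partner of Bax, by 0.31 ± 0.09, but Bak1 was 0.46 higher when its probes were averaged. The survival genes Mcl1 (0.15 ± 0.08), Bcl2l1 (0.01 ± 0.13) and Bcl2 (-0.12 ± 0.13) did not pass the test.

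Among targets for arrest and feedback, Cdkn1a, which encodes the cyclin-dependent kinase inhibitor p21, was at -2.95, -2.59, -2.49 and -2.58 untreated and at 1.50, 1.33, 0.35 and 0.95 at 4 h. The groups were far apart, though replicate 3 was the lowest irradiated array, and the rise was 3.68 ± 0.24 or 12.8-fold (adjusted p = 5.89e-10). The window of 250 bases before its RefSeq start at chr17:29090729-29090978 (build GRCm38.p6, + strand) is shown because it holds a pair of p53 half-sites, in capitals, 73 bases before the start. The search took 2 half-sites of the p53 consensus up to 13 bases apart, and 21 of 32851 RefSeq windows of this length (0.0639%) held such a pair, among them 7 of 14676 windows of genes tested here (0.0477%). A match of letters is a description and not a bound site, and the second RefSeq start of Cdkn1a had none in its window.
Cdkn1a: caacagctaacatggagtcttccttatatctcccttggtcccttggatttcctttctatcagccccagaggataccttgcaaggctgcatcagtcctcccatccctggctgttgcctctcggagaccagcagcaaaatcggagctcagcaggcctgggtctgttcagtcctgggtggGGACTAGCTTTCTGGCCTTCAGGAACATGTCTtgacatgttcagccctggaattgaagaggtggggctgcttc

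Plk2, a polo-like kinase, was at -4.52, -5.02, -4.55 and -5.02 untreated and -0.80, -0.78, -1.27 and -0.77 at 4 h, a rise of 3.87 ± 0.28 or 14.6-fold (adjusted p = 2.62e-09). Ccng1, cyclin G1, rose 4.89-fold and Psrc1, a microtubule-associated p53 target, 7.70-fold, and their groups did not overlap. Mdm2, the ubiquitin ligase that degrades p53, rose from 2.53, 2.63, 2.61 and 2.40 to 3.32, 3.29, 3.05 and 3.11 (0.65 ± 0.12, adjusted p = 2.24e-04), and Ppm1d, a phosphatase that silences the damage signal, by 0.97 ± 0.07. In this list 16 of 24 tested genes rose and 2 fell (median 0.74). The targets for repair and metabolism were mixed: 16 of 29 rose and 4 fell, with a median of 0.25. Mgmt, which removes alkyl groups from guanine, rose 3.79-fold, the sestrin Sesn2 3.50-fold, and the nucleotide-excision factor Ddb2 by 0.34 ± 0.08 (adjusted p = 0.00171). Rrm2b, a p53-induced subunit of ribonucleotide reductase, did not pass the test (0.01 ± 0.17), and Polh (-0.27 ± 0.20) and Tigar (-0.26 ± 0.19) did not either. Of other known targets 18 of 25 rose and 3 fell (median 0.96). Dglucy, D-glutamate cyclase, led them at -1.61, -1.65, -1.21 and -1.43 untreated and 3.21, 3.16, 3.16 and 3.12 at 4 h (24.9-fold, adjusted p = 3.03e-16). Its 4 irradiated arrays differed from each other by less than 0.1. Gdf15, a stress cytokine of the TGF-beta family, rose from -3.67, -2.98, -3.95 and -3.73 to 1.23, 0.85, 0.04 and 0.51 (18.9-fold, adjusted p = 5.20e-10).

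Ligands and receptors of the TNF superfamily, which carry survival, death and co-stimulatory signals between cells, rose in 17 of 36 cases and fell in 3 (median 0.62). Over all genes tested 28.8% rose and 16% fell. In the second class by level, where this list's median levels lay, 36.7% rose. Of the 36 members 3 were well above background on no untreated array. Tnfsf4, the OX40 ligand, was at -7.28, -6.97, -6.39 and -8.13 untreated and -0.63, -0.69, -0.86 and -0.74 at 4 h. No untreated array was well above background for Tnfsf4, so the rise is at least 31.1-fold, the mean at 4 h against the higher of the lowest reliable signal and the measured value on each untreated array (fitted change 6.46 ± 0.27, adjusted p = 8.25e-13). That bound, like every later fold given as at least, holds for this background step only. With normexp the fitted change of Tnfsf4 was 1.88. Tnfsf8, the CD30 ligand, rose 7.75-fold and Cd70, the ligand of CD27, 4.06-fold. Tnfrsf10b, the mouse TRAIL receptor, rose 3.01-fold and Tnf itself from -2.58, -2.67, -2.37 and -2.31 to -1.37, -1.55, -1.28 and -1.21 (1.13 ± 0.19, adjusted p = 7.54e-05). Cd40lg, the CD40 ligand of helper T cells, fell by 1.09 ± 0.29 (0.20 higher under normexp with a capped background), Tnfrsf21 (death receptor 6) by 0.69 ± 0.15 and Cd27 by 0.45 ± 0.11, a call lost in 5 of 26 alternative settings. Cd80, a co-stimulatory ligand outside this family, rose 7.89-fold (adjusted p = 1.97e-06). Over 24 alternative settings the smallest log2 changes of Cd70, Tnfrsf10b and Cd80 were 0.35, 0.17 and 0.74. Their calls were lost in 3, 1 and 1 of these.

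**Figure D2:**
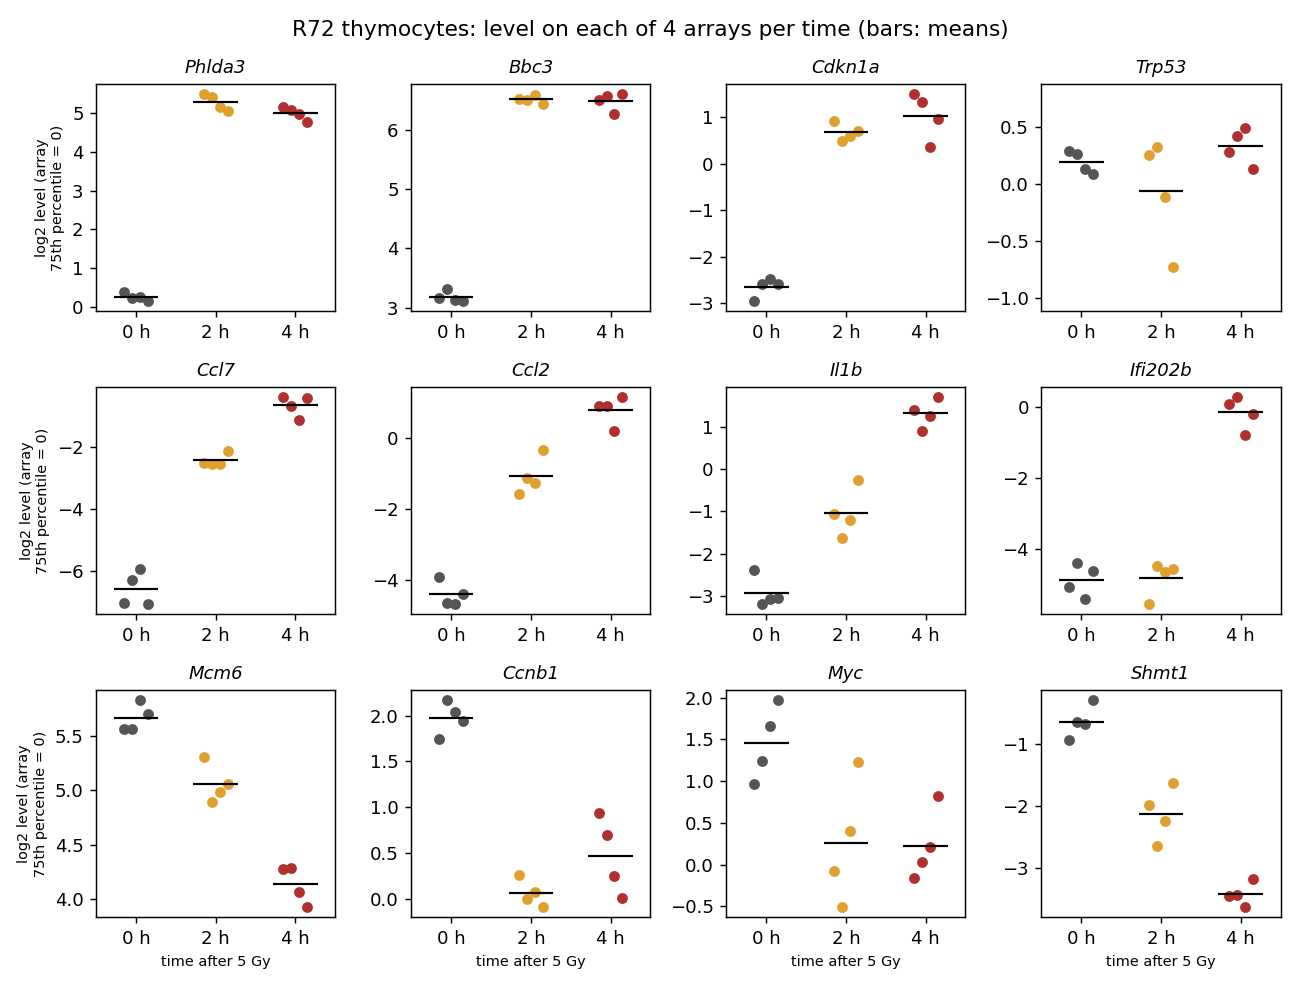
Log2 level (75th percentile of the array = 0) of 12 genes on each of 4 R72 arrays untreated and at 2 h and 4 h after 5 Gy; points are arrays and bars are means, and the vertical scale differs between panels. Phlda3 and Bbc3 are as high at 2 h as at 4 h, Ifi202b leaves its untreated level only at 4 h, and Mcm6 and Shmt1 are lower at each later time, whereas Trp53 overlaps at all times.

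Chemokines, which call leukocytes into a tissue, rose in 20 of 32 tested cases and fell in 0, with a median of 1.14. Over all genes tested 28.8% rose and 16% fell. Of the 32 chemokines 7 were well above background on no untreated array and 3 on none at 4 h, so their count is a description. Ccl7 and Ccl2 attract monocytes, and their probes lie at chr11:82128729-82128788 and chr11:82118723-82118782 (build mm7). Ccl7 was at -7.02, -6.28, -5.94 and -7.06 untreated and at -0.39, -0.67, -1.13 and -0.41 at 4 h, a rise of 5.92 ± 0.34 or 60.8-fold (adjusted p = 1.03e-10), and 1 of its 4 untreated arrays was well above background. Ccl2 went from -3.91, -4.64, -4.68 and -4.41 to 0.92, 0.92, 0.20 and 1.16, a rise of 5.21 ± 0.30 or 37.0-fold (adjusted p = 9.56e-11). In both genes every irradiated array stood more than 4 units above every untreated one. The neutrophil attractants Cxcl1 and Cxcl2 were not well above background on any untreated array and rose at least 4.43-fold and 2.05-fold. Their smallest log2 changes over 24 alternative settings were 0.45 and 0.31, and each lost its call in 1. Ccl3 rose 16.6-fold and Ccl4 6.22-fold, and Cxcl10, an attractant of activated T cells, 2.79-fold. Ccl5 (0.46 ± 0.20), Cxcl12 (0.58 ± 0.34) and Xcl1 (-0.57 ± 0.30) did not pass the test.

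The windows before Cxcl1 (chr5:90890995-90891244, + strand) and Cxcl2 (chr5:90903649-90903898, + strand) are shown because each holds 2 NF-kB motifs, in capitals: at 89 and 71 bases before the start in Cxcl1 and at 97 and 78 in Cxcl2. The motifs searched on both strands were GGG followed by any 2 bases and TTTCC, and GGG followed by any 3 bases and TCCC, which can overlap each other, and 9 of 26 windows of tested chemokines (34.6%) held at least 1, beside 6.01% of all RefSeq windows and 7.37% of those of genes tested. Among all genes up by at least 2-fold 7.17% of windows held a motif, and among those down by at least 2-fold 9.2% did. Windows were available for 23 of the 32 tested chemokines, and not for Ccl2 and Ccl7. Il1b and Tnf had no match in their windows.
Cxcl1: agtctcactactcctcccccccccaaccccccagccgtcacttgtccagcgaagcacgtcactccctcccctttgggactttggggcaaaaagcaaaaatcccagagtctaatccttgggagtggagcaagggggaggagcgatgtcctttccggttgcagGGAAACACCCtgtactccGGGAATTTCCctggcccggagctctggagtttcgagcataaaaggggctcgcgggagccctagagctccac
Cxcl2: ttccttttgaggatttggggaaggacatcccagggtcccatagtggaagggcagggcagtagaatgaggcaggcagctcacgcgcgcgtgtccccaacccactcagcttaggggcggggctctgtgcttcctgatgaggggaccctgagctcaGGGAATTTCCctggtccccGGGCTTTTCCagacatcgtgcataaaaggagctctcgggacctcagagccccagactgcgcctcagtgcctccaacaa

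Genes of interleukin 1 and the inflammasome followed. Il1b, which encodes the pro-form of interleukin 1 beta, was at -2.38, -3.20, -3.09 and -3.05 untreated and at 1.42, 0.90, 1.27 and 1.71 at 4 h, a rise of 4.26 ± 0.30 or 19.1-fold (adjusted p = 2.33e-09), with no overlap. Il1a rose 4.46-fold and its natural antagonist Il1rn 5.03-fold. The log2 change of Il1a ran from 0.33 to 3.14 over 24 alternative settings, and its call was lost in 2. Il6 was not well above background untreated and rose at least 4.83-fold. Its smallest log2 change over 24 alternative settings was 0.40, and its call was lost in 1. Casp4, the caspase that senses bacterial lipopolysaccharide in the cytosol, went from -0.29, -0.74, -0.91 and -0.89 to 1.14, 0.82, 0.54 and 0.72, 2.85-fold higher (adjusted p = 3.78e-05). Casp1, which matures interleukin 1 beta, rose by 0.46 ± 0.18 (adjusted p = 0.0468), and in 16 of 26 alternative settings it no longer passed the test, with limma's adjusted p from 0.0286 to 0.330. Nlrp3, a sensor that nucleates the inflammasome, rose 3.42-fold, while its adaptor Pycard fell by 0.50 ± 0.15. For Nlrp3 the smallest log2 change over 24 alternative settings was 0.30, and its call was lost in 2. In this list 15 of 22 genes rose and 1 fell (median 0.76), beside 28.8% up and 16% down over all genes tested.

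Regulators of NF-kB rose in 13 of 21 cases and fell in 1, mostly by small steps (median 0.36). Bcl3, an atypical IkB that works in the nucleus, was at 0.74, 0.36, 1.01 and 0.74 untreated and 2.89, 3.01, 2.63 and 2.69 at 4 h, a rise of 2.09 ± 0.18 or 4.26-fold (adjusted p = 2.97e-08). Relb rose by 0.90 ± 0.14, Nfkb2 by 0.69 ± 0.14 and Nfkb1 by 0.57 ± 0.13, and Rela, the main activating subunit, was at -0.18 ± 0.12 and did not pass the test. Nfkbia, the inhibitor that NF-kB induces against itself, moved from 5.81, 5.91, 6.08 and 6.09 to 6.19, 6.18, 6.36 and 6.39 (0.31 ± 0.10, adjusted p = 0.0126), without overlap. That call was lost in 4 of 26 alternative settings (adjusted p from 0.000861 to 0.427). Known NF-kB targets rose in 22 of 32 cases and fell in 2 (median 0.92). F3, tissue factor, which starts blood clotting, was at -6.93, -7.55, -6.49 and -6.92 untreated, never well above background, and at -1.64, -1.32, -1.91 and -1.46 at 4 h, at least 17.2-fold higher. Csf1, the macrophage growth factor, rose 3.93-fold and the adhesion molecule Icam1 1.84-fold, whereas Sod2 fell by 0.38 ± 0.09. Toll-like and other microbial sensors rose in 13 of 23 cases and fell in 1 (median 0.59), led by Cd14 at 6.44-fold. Beside each of these lists stand 28.8% up and 16% down over all genes tested.

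Interferon-stimulated genes rose in 21 of 44 cases and none fell (median 0.34). Beside this list and those that follow here stand 28.8% up and 16% down over all genes tested (median 0.09). Ifi202b, a DNA-binding protein of the HIN-200 family, stood apart at -5.08, -4.40, -5.42 and -4.62 untreated and 0.07, 0.28, -0.78 and -0.19 at 4 h, a rise of 4.73 ± 0.52 or 26.5-fold (adjusted p = 9.66e-07). Mx1 rose by 0.87 ± 0.18 and Isg15 by 0.53 ± 0.16, while Irf7 (0.32 ± 0.16), which amplifies the interferon response, did not pass the test. Immediate early genes, the first genes switched on by many stimuli, rose in 28 of 43 cases and fell in 1 (median 0.54). Ccn1, a matrix protein, was at -5.07, -5.12, -5.80 and -4.79 untreated and -0.15, -0.12, -0.47 and -0.07 at 4 h (31.8-fold, adjusted p = 6.46e-12), and the stress factor Atf3 went from -3.21, -3.69, -3.59 and -3.68 to 0.64, 0.45, 0.06 and 0.43 (15.4-fold, adjusted p = 2.47e-11). Neither gene overlapped between groups. Ier3 rose 12.2-fold, Fos 4.36-fold and Jun 3.44-fold, but Egr1, which growth factor and T cell receptor signals induce, did not pass the test (-0.13 ± 0.11), nor did Egr2 (-0.35 ± 0.17) or Egr3 (-0.33 ± 0.18). Of secreted factors linked to stress 20 of 27 rose and 1 fell (median 1.41): Hbegf, a growth factor of the EGF family, rose 20.1-fold, and Thbs1, thrombospondin 1, at least 11.6-fold. Of 35 such genes on the array 27 passed the filter, and 6 of these were well above background on no untreated array. The count is therefore a description, and the median ran from 0.28 to 1.57 over 26 alternative settings. For Thbs1 the smallest log2 change over 24 alternative settings was 0.99, and its call was lost in 1. Genes that glucocorticoids induce rose in 13 of 23 cases and fell in 2 (median 0.36), beside 28.8% up and 16% down over all genes tested. Pdk4, a kinase that shuts pyruvate out of oxidation, rose at least 15.3-fold, and the metallothioneins Mt2 and Mt1, which bind zinc, 6.33-fold and 5.16-fold. For Pdk4 the smallest log2 change over 24 alternative settings was 1.08, and its call was lost in 1. The glucocorticoid genes Tsc22d3 (0.19 ± 0.36) and Fkbp5 (-0.50 ± 0.28) did not pass the test.

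Genes of replication, nucleotide synthesis and mitosis fell in larger shares than the 16% of all genes tested. Genes of the G1/S transition and DNA replication fell in 44 of 48 cases and none rose, with a median of -0.82. Mcm6, a subunit of the replicative helicase, was at 5.57, 5.56, 5.83 and 5.70 untreated and 4.28, 4.28, 4.07 and 3.92 at 4 h, a fall of 1.53 ± 0.15 or 2.88-fold (adjusted p = 2.08e-07). Mcm2, another subunit, went from 3.08, 3.26, 3.24 and 3.09 to 2.14, 2.13, 1.83 and 1.82 (2.28-fold lower), and Pcna, the sliding clamp of the replisome, from 6.39, 6.59, 6.56 and 6.54 to 5.49, 5.30, 5.21 and 5.41 (2.25-fold lower, adjusted p = 4.88e-08). No irradiated array of these genes reached an untreated one. Ung, which removes uracil from DNA, fell 4.25-fold, and Ccne2 and Ccne1, the cyclins that open S phase, 2.72-fold and 2.53-fold. E2f2 (0.18 ± 0.14), Msh6 (-0.14 ± 0.07), Prim2 (-0.21 ± 0.36) and Clspn (-0.54 ± 0.24) were the 4 members that did not pass the test, though the fall of Clspn passed it in 10 of 26 alternative settings. The synthesis of nucleotides and of the folate carriers they need fell alongside, in 27 of 29 genes, with 1 rise (median -0.78). Shmt1, which feeds serine carbon into folate, was at -0.94, -0.66, -0.68 and -0.30 untreated and -3.45, -3.43, -3.63 and -3.18 at 4 h, 6.86-fold lower (adjusted p = 1.94e-09), and its mitochondrial counterpart Shmt2 fell 2.92-fold. Dctd, deoxycytidylate deaminase, fell 3.88-fold and Tyms, thymidylate synthase, 1.88-fold. The log2 change of Dctd nearest 0 over 24 alternative settings was -0.21, and its call was lost in 2. Rrm2, the small subunit of ribonucleotide reductase, was the member that did not pass the test (-0.28 ± 0.14).

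The window before Mcm6 (chr1:128359706-128359955, - strand) is shown because it holds 2 E2F motifs, in capitals, 110 and 47 bases before the start. TTTCCCGC and TTTGGCGC were searched on both strands, and 6 of 45 windows of the G1/S and replication genes (13.3%) held either, beside 1.3% of all windows and 2.06% of those of genes tested.
Mcm6: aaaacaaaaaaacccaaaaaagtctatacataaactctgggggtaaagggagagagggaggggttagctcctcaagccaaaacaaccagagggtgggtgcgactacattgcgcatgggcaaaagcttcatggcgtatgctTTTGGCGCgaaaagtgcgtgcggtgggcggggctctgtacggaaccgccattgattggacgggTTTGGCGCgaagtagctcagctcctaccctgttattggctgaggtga

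Genes of G2 and mitosis fell in 46 of 60 cases and none rose (median -0.50). Ccnb1, cyclin B1, which with Cdk1 drives entry into mitosis, was at 1.74, 2.17, 2.04 and 1.94 untreated and 0.94, 0.69, 0.25 and 0.01 at 4 h, 2.83-fold lower (adjusted p = 2.49e-06). The fall of Ccnb1 ranged more between irradiated arrays, with replicate 4 the lowest, but no array overlapped. Cdk1 itself fell 1.98-fold, the checkpoint kinase Bub1b 2.14-fold, and Cdc20, which opens anaphase, 1.74-fold. Of the 45 genes that sense and mend DNA damage 22 fell and 3 rose (median -0.25). Apex1, the nuclease of base excision repair, went from 1.98, 2.11, 2.04 and 2.30 to 0.78, 0.66, 0.48 and 0.70, 2.73-fold lower (adjusted p = 5.59e-09), the kinase Chek1 fell 2.21-fold and Nbn, of the complex that finds double-strand breaks, 1.98-fold. Atm (-0.03 ± 0.18) and Prkdc (-0.02 ± 0.09), the kinases that breaks activate, did not pass the test. Histone genes rose in 5 and fell in 5 of 20 cases, and their median of -0.07 changed sign in 1 of 26 alternative settings.

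The windows before Cdk1 (chr10:69352913-69353162, - strand) and Cdc20 (chr4:118437344-118437593, - strand) are shown because both hold the CHR motif TTTGAA, a short element found near the start of mitotic genes, in capitals at 71 and 15 bases before the start in Cdk1 and at 18 bases in Cdc20. Searched on both strands, TTTGAA was in 20 of 53 windows of the G2 and mitosis genes (37.7%), beside 16% of all windows and 11.6% of those of genes tested. Ccnb1 and Bub1b had no match.
Cdk1: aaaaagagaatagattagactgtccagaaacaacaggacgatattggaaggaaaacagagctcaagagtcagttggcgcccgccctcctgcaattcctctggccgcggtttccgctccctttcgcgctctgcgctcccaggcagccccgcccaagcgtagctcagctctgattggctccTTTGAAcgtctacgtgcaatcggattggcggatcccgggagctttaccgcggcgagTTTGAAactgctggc
Cdc20: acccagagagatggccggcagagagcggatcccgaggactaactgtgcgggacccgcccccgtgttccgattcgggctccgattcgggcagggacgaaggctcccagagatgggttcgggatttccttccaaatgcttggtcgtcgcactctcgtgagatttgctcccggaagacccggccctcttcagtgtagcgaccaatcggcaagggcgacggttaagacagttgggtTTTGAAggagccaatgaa

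Genes that Myc drives and that build ribosomes fell in 39 of 46 cases and rose in 2 (median -0.62). Myc itself was at 0.97, 1.24, 1.66 and 1.97 untreated and -0.16, 0.03, 0.21 and 0.82 at 4 h, a fall of 1.23 ± 0.33 (adjusted p = 0.00477), and the arrays of the groups did not overlap although those within each group spread over about 1 unit. The fall of Myc did not pass the test in 1 of 26 alternative settings. Bcat1, a branched-chain aminotransferase, was at -3.06, -1.38, -1.37 and -1.52 untreated and -5.92, -5.05, -5.03 and -5.65 at 4 h, a fall of 3.58 ± 0.42 or 11.9-fold (adjusted p = 1.98e-06). Untreated replicate 1 of Bcat1 was more than 1.5 units below the other untreated arrays, and 1 irradiated array was well above background. Srm, spermidine synthase, fell 4.05-fold and Rrp12, a ribosome assembly factor, 3.56-fold, while Mxd1 and Mxi1, which oppose Myc, rose by 0.84 ± 0.13 and 0.38 ± 0.08. The log2 change of Rrp12 nearest 0 over 24 alternative settings was -0.39, and its call was lost in 1. The ribosomal proteins themselves moved little: 2 of 66 rose and 8 fell (median -0.06).

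Chaperones fell in 27 of 37 cases and none rose (median -0.54). Hsph1, a large chaperone of the HSP110 class, went from 3.91, 4.34, 4.98 and 4.13 to 3.05, 3.21, 1.83 and 2.37, 3.30-fold lower (adjusted p = 4.07e-05), and Hsp90aa1 from 6.56, 6.62, 6.94 and 6.71 to 5.47, 5.57, 5.34 and 5.54, 2.34-fold lower. Subunits of the respiratory chain fell in 37 of 52 cases (median -0.33) and those of the proteasome in 25 of 36 (median -0.33), and none rose in either list. Glycolytic genes fell in 13 of 24 cases and rose in 2, with Tpi1, triose phosphate isomerase, 3.25-fold lower. Cholesterol synthesis genes fell in 11 of 24 and rose in 1 (median -0.27), with Sqle, squalene epoxidase, lower by 1.08 ± 0.11. The unfolded protein response had 8 rises and 8 falls among 38 genes, and its median of -0.02 changed sign in 4 of 26 alternative settings. Eif2ak3 (PERK), the kinase that slows translation under this stress, rose from 1.76, 1.84, 1.84 and 1.97 to 3.64, 3.75, 4.29 and 4.29, 4.40-fold (adjusted p = 1.81e-09), whereas Psat1 and Phgdh, of serine synthesis, fell by 1.30 ± 0.12 and 0.85 ± 0.11. Clock genes rose in 8 of 19 cases, Per3 by 1.72 ± 0.35 and Nr1d1 by 1.40 ± 0.25, and none fell, with a median of 0.11 that changed sign in 1 of 26 settings. Over all genes tested 28.8% rose and 16% fell (median 0.09). The call of Nr1d1 was lost in 2 of 25 alternative settings.

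**Figure D3:**
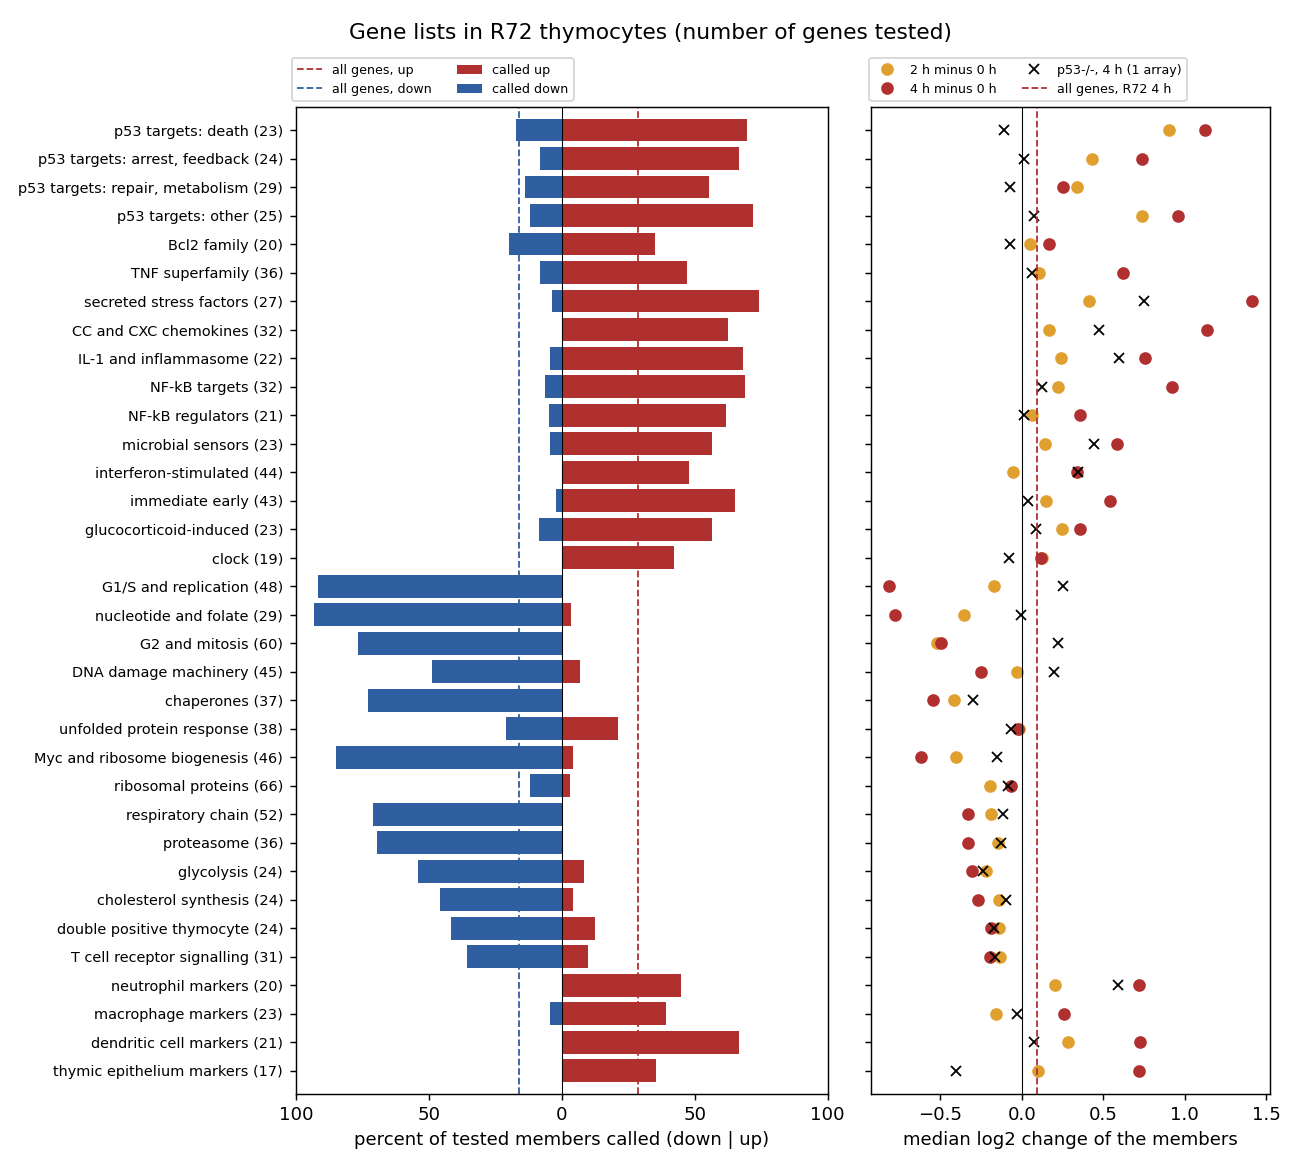
Left, percent of the tested members of each gene list called up (red) or down (blue) in R72 thymocytes at 4 h against untreated, with the 28.8% and 16% of all genes as broken lines; right, the median log2 change of the members at 2 h and at 4 h in R72 (4 arrays per group) and on the single p53-/- array at 4 h, with the all-gene R72 median of 0.09 as a broken line. Replication, nucleotide and mitosis lists lie far to the left, and the p53, chemokine and secreted factor lists to the right.

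Other named genes with the largest rises had no common list. Myom3, a muscle structural protein, was at -4.72, -5.13, -5.78 and -6.44 untreated and 0.86, 2.98, -2.08 and -1.67 at 4 h, and the irradiated arrays spread over 5 units although none overlapped (change 5.54 ± 1.01, adjusted p = 2.06e-04). Bfsp2, a filament protein of the eye lens, rose 22.4-fold and Dnm3, a neuronal dynamin not well above background untreated, at least 6.80-fold. Mup5, a urinary protein, also started below background and rose at least 4.20-fold. The smallest log2 changes of Dnm3 and Mup5 over 24 alternative settings were 0.65 and 0.38, and each lost its call in 1. Among the largest falls were Gfra1, a co-receptor for glial-derived factor, at -3.65, -2.96, -3.23 and -2.66 untreated and -6.35, -5.71, -5.76 and -5.61 at 4 h (6.64-fold lower, adjusted p = 3.96e-08), Egfl7 (3.43-fold) and Ankrd37 (3.42-fold). The log2 change of Gfra1 nearest 0 over 24 alternative settings was -0.52, and its call was lost in 1. Sox13, a factor of early and gamma-delta T cells, was not well above background on any irradiated array and fell at least 2.71-fold. Its log2 change nearest 0 over 24 alternative settings was -0.01, and its call was lost in 2. Spink2 fell by 1.98 ± 0.50, with irradiated replicate 4 at -7.96 and the other irradiated arrays between -5.27 and -5.05. The call of Spink2 was lost in 4 of 24 alternative settings. Kcnh8, not well above background on any irradiated array, fell at least 1.19-fold, and Klf15 fell by 1.90 ± 0.36, but with normexp on a capped background their changes were 0.10 and 0.17.

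Arrays at 2 h tell when the 4 h state was reached, though changes from 0 h share the untreated arrays and changes to 4 h share the irradiated ones, so the values are set side by side. The 2 h arrays were less even than the others: 52.4%, 67.5%, 66.1% and 71.5% of probes were well above background. Their 75th percentiles were 485.3, 526.8, 504.8 and 1031. The part of this unevenness in the counts of weak genes by time was not tested. From 2 h to 4 h 4317 genes (21%) passed the test, 3300 up (16.1%) and 1017 down (4.95%), and from 0 h to 2 h 2677 (13%) did, 1282 up (6.24%) and 1395 down (6.79%). Of the 3607 genes up by at least 2-fold at 4 h, 666 had passed upward by 2 h, and 2134 rose between 2 h and 4 h. Of the 215 down by at least 2-fold, 158 had passed downward by 2 h and 117 fell between 2 h and 4 h. Of the 23 tested p53 death targets 15 were already called up at 2 h. Phlda3 stood 5.01 ± 0.10 above untreated at 2 h and changed by -0.28 ± 0.10 from 2 h to 4 h (limma adjusted p = 0.0588). Bbc3 stood 3.33 ± 0.09 higher at 2 h and then changed by -0.03 ± 0.09 (limma adjusted p = 0.863). Outside the death targets, Tnfsf4 was up by 6.62 ± 0.27 at 2 h and then changed by -0.15 ± 0.27 (limma adjusted p = 0.734). Of the 23 death targets 2 rose further, Zmat3 (0.74 ± 0.15) and Perp (0.77 ± 0.27), and 4 fell: Aen (-0.41 ± 0.10) and Apaf1 (-0.44 ± 0.14) from their raised 2 h levels, and Bid (-0.73 ± 0.10) and Siva1 (-0.71 ± 0.12). Ccl7 was up by 4.14 ± 0.34 at 2 h and rose by a further 1.78 ± 0.34, and Il1b by 1.89 ± 0.30 and then 2.37 ± 0.30, whereas other inflammatory genes moved late. Ifi202b was at -5.55, -4.47, -4.65 and -4.57 at 2 h, within the untreated range or just below it, and rose by 4.66 ± 0.52 from 2 h to 4 h (adjusted p = 1.32e-05). Further late risers were F3 (3.95 ± 0.39), Pdk4 (3.43 ± 0.40) and Bcar1, a focal adhesion scaffold (2.79 ± 0.35), each well above background on 3 of 4 arrays at 2 h, while Cxcl2 was so on none at 2 h and on all at 4 h. Chemokines rose from 2 h to 4 h in 15 of 32 cases (median 0.78, beside 0.07 over all genes), against 6 from 0 h to 2 h (median 0.16). NF-kB targets did so in 21 of 32 cases against 6, and Bcl3 changed by -0.06 ± 0.18 at first and then by 2.15 ± 0.18. Mitosis and replication were apart in time too: 35 of 60 mitotic genes fell by 2 h, and from 2 h to 4 h 4 rose (Aurka, Cenpf, Pttg1 and Cenpa) and 3 fell (Fbxo5, Cenph and Mad2l1), whereas 11 of 48 replication genes fell by 2 h and 43 between 2 h and 4 h. Ccne2 was at 0.33 ± 0.40 from 0 h to 2 h and fell by 1.77 ± 0.40 from 2 h to 4 h (adjusted p = 0.00522), and Zfp704, a zinc finger gene, at 0.17 ± 0.17 and then -1.31 ± 0.17.

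The single 4 h arrays of p53+/+ and p53-/- mice, each set against 2 untreated arrays of its genotype, give values without a test. On the p53+/+ array 23.1% of all genes tested were past 2-fold up and 2.29% past 2-fold down, and on the p53-/- array 2.65% and 1.1%. Of the 3607 genes up by at least 2-fold in R72, 3096 (85.9%) were past 2-fold up in p53+/+ and 286 (7.93%) in p53-/-, with median changes of 1.66 and 0.05 beside 0.16 and -0.01 over all genes. Of the 215 down by at least 2-fold, 144 (67%) were past 2-fold down in p53+/+ and 3 (1.4%) in p53-/- (medians -1.14 and -0.20). In p53-/- cells Phlda3 changed by -0.20, Bbc3 by 0.02, Bax by -0.04 and Ccng1 by -0.09, and Ccn1 by 0.44, Atf3 by 0.41 and Ifi202b by 0.38. Cdkn1a stood 1.19 higher there. A set of inflammatory and stress genes was far higher on the irradiated p53-/- array as well: Ccl2 by 4.49, Ccl7 by 3.73, Il1b by 2.83, Hmox1, heme oxygenase, by 2.86, and Mt2 by 2.39. On the p53+/+ array the same genes were higher by 4.99, 4.87, 5.44, 1.77 and 2.27, with Ccl2 and Ccl7 well above background on 1 of its 2 untreated arrays. Thbs1 and Il6 were not well above background on any untreated array of either genotype and were so on both irradiated arrays. The p53-/- medians were -0.11 for death targets, 0.48 for chemokines, 0.60 for interleukin 1 and the inflammasome, 0.35 for interferon-stimulated genes, 0.25 for replication and 0.22 for mitosis. With 1 irradiated array per genotype these are values of those arrays, and the p53-/- array differs from the R72 arrays in slide as well.

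**Figure D4:**
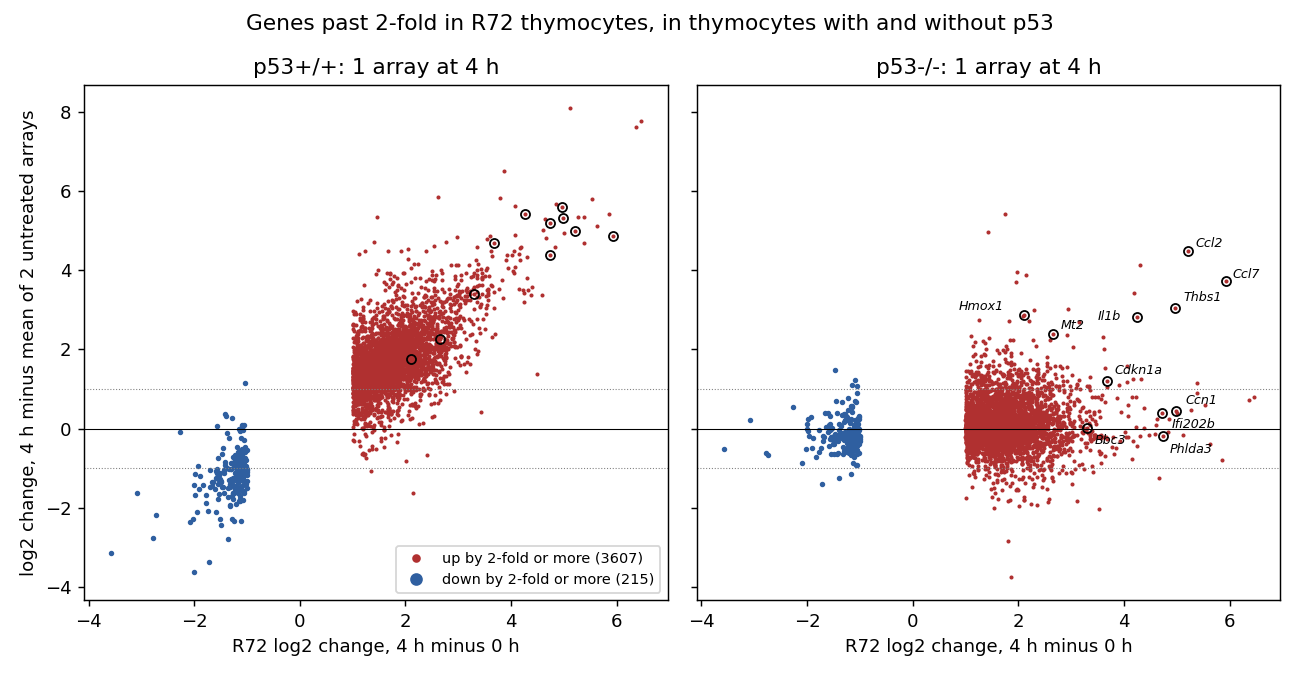
Each point is a gene past 2-fold in R72 thymocytes at 4 h (3607 up in red, 215 down in blue): the horizontal axis is its R72 log2 change, and the vertical axis its log2 change on the single 4 h array of p53+/+ (left) or p53-/- (right) mice against 2 untreated arrays; dotted lines mark 2-fold, and circled genes are named on the right. On the left the points follow the R72 change, and on the right most lie near 0 while Ccl2, Ccl7, Il1b, Hmox1, Mt2 and Thbs1 (not above background untreated) lie above 2-fold.

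P72 thymocytes went through the same comparison on arrays of their own. There 11635 of 20536 genes (56.7%) passed the test, 7358 up (35.8%) and 4277 down (20.8%). Of the 3607 genes up by at least 2-fold in R72, 3501 also rose in P72 and 1 fell, and of the 215 down, 193 also fell. The difference of the responses was called for no gene by limma, with 1157 of 20536 at an unadjusted p under 0.05, and for none under each of the 9 alternative settings run for it. Phlda3 rose by 4.50 ± 0.10 in P72, a difference of 0.23 ± 0.14 (R72 minus P72), and Bbc3 by 3.33 ± 0.09, a difference of -0.03 ± 0.12. Cdkn1a rose by 4.47 ± 0.24 in P72 and 3.68 ± 0.24 in R72, a difference of -0.79 ± 0.34, and Il1b by 5.41 ± 0.30 and 4.26 ± 0.30, a difference of -1.15 ± 0.43 (adjusted p = 0.780). For Casp4 the difference was -0.94 ± 0.33, for Ier3 -1.15 ± 0.25 (adjusted p = 0.497) and for Mcm6 -0.11 ± 0.21. The medians of many lists were lower in R72 than in P72: neutrophil markers (0.72 against 1.67), p53 death targets (1.13 against 1.86), secreted stress factors (1.41 against 2.14), epithelium (0.72 against 1.43), chemokines (1.14 against 1.74) and macrophage markers (0.26 against 0.85). For p53 death targets, however, the median of the members' own differences (R72 minus P72) was 0.0032, so their typical member did not respond less in R72. That median was -1.002 for neutrophil markers, -0.522 for secreted stress factors and -0.787 for epithelium. For chemokines it was -0.643 and for macrophage markers -0.465. Mitosis (-0.50 against -0.69) and chaperones (-0.54 against -0.76) had medians nearer 0 in R72. No member of any list passed the test of the difference.

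A thymus suspension can hold other cells. Markers of neutrophils, dendritic cells, macrophages, thymic epithelium, and stroma and endothelium had larger shares called up than the 28.8% of all genes. B cell and erythroid markers had smaller ones. By class of level, the share of all genes called up was 53.8% in the lowest class, then 36.7%, 15.2% and 9.68%. The lowest class ended at a level of -4.06 and the second at -1.21. Median levels of the neutrophil, dendritic cell, macrophage and epithelium lists lay above the lowest class, between -2.71 and 0.42. Those of stroma and endothelium ran from -4.21 to -2.46 untreated and from -3.52 to -2.88 at 4 h. The 7 of 19 stroma and endothelium markers called up were near the 36.7% of the second class, so that share is not particular to these markers. Neutrophil markers rose in 9 of 20 cases and none fell (median 0.72), and their summed signal, in multiples of the 75th percentile, was 74.6 to 95.1 untreated and 76.0 to 154 at 4 h. The abundant neutrophil genes S100a8 (0.31 ± 0.27) and S100a9 (0.43 ± 0.27) did not pass the test, and irradiated replicate 2 lay below most untreated arrays for both. Dendritic cell markers rose in 14 of 21 cases and none fell (median 0.72, sum 43.5 to 52.5 untreated and 61.7 to 100 at 4 h), with Itgax, the integrin CD11c, 2.18-fold and H2-Aa, of MHC class II, 1.81-fold higher. Macrophage markers rose in 9 of 23 cases and fell in 1 (median 0.26, sum 63.1 to 93.3 untreated and 87.8 to 143 at 4 h), but the defining Adgre1 (0.26 ± 0.21), Csf1r (0.14 ± 0.18) and C1qa (0.09 ± 0.20) did not pass the test. Thymic epithelium markers rose in 6 of 17 cases and none fell (median 0.72, sum 78.0 to 244 untreated and 205 to 304 at 4 h), with the keratin Krt8 2.35-fold higher and Foxn1, the factor that defines this lineage, at 0.44 ± 0.33 and not passing. B cell markers rose in 2 and fell in 4 of 17 cases, those of stroma and endothelium rose in 7 and fell in 1 of 19, and both medians (-0.07 and 0.31) changed sign in 2 of 26 settings. Erythroid markers rose in 2 and fell in 2 of 9 cases (sum 129 to 258 untreated and 97.7 to 222 at 4 h). Every defining marker of neutrophils, macrophages, dendritic cells and thymic epithelium that was tested was well above background on at least 1 array of each group, and Ly6g and Ccl22 did not pass the filter on dim probes. Markers of single positive thymocytes rose in 9 and fell in 6 of 25 cases, and of early thymocytes in 9 and 3 of 20, with medians of 0.09 and 0.15 that changed sign in 1 and 3 settings. The part of these cells in the rise of chemokines, Il1b and the sensors was not tested.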

How the data were processed

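Each sample was hybridised to a single-colour Agilent mouse array: 500 ng of thymocyte RNA, Cy3 labelled, per the labels' protocols. The deposited scanner files hold intensity values that Agilent Feature Extraction 9.5.3.1 had corrected for background, per the file headers. The authors' tabulated values are deposited on a log2 scale and served as an alternative; their scaling is not given in the sources used here. Each array had 43379 spots beside 1639 control spots, which were left out. Flagged values (0.223%) were left out too, spots of a probe were averaged, and each array's 75th percentile was subtracted from log2 intensity. A probe had to be well above background on 4 or more of the 32 arrays, and 1 probe stood for a gene. Names came from the files, updated through RefSeq for 5193 symbols (23075 probes matched), and probe coordinates from the file headers' build, mm7.

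Contrasts were fitted in limma 3.58.1 (R 4.3.3) on the 24 P72 and R72 arrays without a block, with Benjamini-Hochberg adjustment over 20536 genes and a threshold of 0.05; the p53+/+ and p53-/- arrays were described without a test. The fit was tested on simulated data. The contrast, the 40 gene lists and the genes always named were chosen with earlier results of these data known, so list counts and medians are descriptions. Named genes were those always named, the largest called changes whose groups did not overlap, and up to 4 members per list with the smallest p; other list members, named for their roles, were chosen after their values were seen. The series design gives replicates as independent experiments, and no label links arrays of the same number. Deviations of same-numbered untreated and 4 h arrays correlated at 0.1433, 0.0689, 0.2015 and 0.2558. Since not all pairs passed 0.1, the numbers were not taken to pair the samples. The 4 h arrays of replicates 1, 3 and 4 correlated best with the untreated array of their own number, so a link by number is not excluded. A fit with a replicate block is given as an alternative. Background correction, scaling, filters, probe choice, slide, scan and replicates were varied. Figures were drawn with matplotlib 3.10.9. Results for some genes are not reported here.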

Additional observations from a re-analysis of the deposited data

Results flagged for a closer look

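Among genes named in the text, 320 groups of 4 R72 arrays were examined for a single array far from the other 3, and 16 had one, where chance gives about 5%. The array labelled 4 h replicate 3 accounted for 6 of them. On it Cxcl10 was at -0.53 (the others between 0.07 and 0.14), Fos at -1.81 (-1.60 to -1.59), Plk2 at -1.27 (-0.80 to -0.77), Mxd1 at 2.81 (3.14 to 3.19), Prim2 at 0.50 (1.14 to 1.18) and Tyms at 3.18 (3.61 to 3.65), all low. The array of 4 h replicate 4 was high for Fas at 4.98 (4.65 to 4.70), Rag1 at 7.71 (7.50 to 7.52) and Dctd at -4.95 (-5.50 to -5.41), and low for Spink2 at -7.96 (-5.27 to -5.05). Itgax stood out on 4 h replicate 1 at 0.69 (0.16 to 0.24). Among untreated arrays, replicate 1 was low for Bcat1 at -3.06 (-1.52 to -1.37), Fkbp5 at 2.17 (2.85 to 2.99), Sqle at 0.46 (0.75 to 0.79) and Pycard at 5.41, while replicate 2 was low for C1qa at 0.28 (0.73 to 0.77).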

How the results depend on the processing

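Of 26 settings with a test, no called gene took the opposite call except 15 when a gene's probes were averaged. Genes up numbered 5922 as reported, 548 with normexp, 3778 in the authors' table, 2697 with a filter on all 32 arrays, 2443 and 2853 in replicates 1 and 3 or 2 and 4 alone, and 3320 among genes above background on all 8 arrays, an alternative chosen after seeing the data. Genes down numbered 3288 as reported, 767 with normexp, 5487 with arrays centred on their medians, and 715 and 979 in the replicate pairs. From 2 h to 4 h, 4317 genes passed as reported, 402 with normexp, 7146 with normexp on a capped background, 2820 in the authors' table and 2468 with the filter on all 32 arrays. From 0 h to 2 h the counts were 2677, 355 with normexp and 1438 with the capped background, and in P72 11635, 5834 with normexp and 7602 with the filter on all 32 arrays. Normexp gave values that were not finite on some arrays, hence the capped version, which gave 5417 genes up and 2893 down at 4 h. Changes turned upward for Kcnh8 (0.10), Klf15 (0.17), Cd40lg (0.20) and Tnfrsf19 (0.047) with the capped background, and for Bak1 (0.46) with averaged probes. Leaving out 1 array gave 5118 to 5833 genes up and 2782 to 3158 down. With the replicate block 6402 genes rose and 3776 fell, 9093 of those called in both fits. The 4 h arrays of replicates 1, 3 and 4 correlated best with the untreated array of their own number. That of replicate 2 correlated best with untreated replicate 1 (0.2415). Under every setting 87 of 160 genes named in the text kept their call, 39 had another call outside normexp and the replicate pairs, and 7 of 40 list medians changed sign. Calls were lost in 5 of 24 settings for Per3 and in 4 of 26 for Mxi1, Isg15, Ddb2, Ccne2, Pycard, Sod2 and Tnfrsf21, and the cause was not tested. Some genes not called here gained a call: Clspn in 10 of 26 settings, Ccl5 and Egr2 in 6, and Irf7, Fkbp5 and Mcl1 in 4. Weak genes are limited by signal over background: 1436 genes tested were not well above background on any untreated array but were on some at 4 h.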

Other observations

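Gbp2b, an interferon-inducible guanylate-binding protein, had 2 levels on untreated R72 arrays, -1.70 and -1.72 on replicates 1 and 2 and -7.15 and -7.05 on replicates 3 and 4, where it was not well above background. At 4 h all 4 arrays were high, at 0.03, 0.04, -0.44 and -0.80, and the change of 4.11 ± 1.70 did not pass limma's test (adjusted p = 0.0547). The same gap appeared elsewhere: at 2 h Gbp2b was at -1.80, -2.19, -1.56 and -6.69 in R72, and untreated P72 arrays stood at -1.01, -7.94, -2.26 and -7.77. On p53+/+ arrays Gbp2b was at -1.003 and -0.73 untreated and at -6.87 at 4 h. Gbp2b was chosen after its values were seen.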
